A study of Mus musculus with 15 samples.

Results

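Cytosolic and mitochondrial chaperones and their J-protein partners were followed in cultured mouse white adipocytes after 0, 1 or 12 days of culture at 31°C. Members were defined by a rule on gene names, set with earlier results of these data known. The rule took symbols that begin with Hsp or Dnaj, the Cct genes 2 to 8, Tcp1, Hsf1, Hsf2, Bag3 and Cryab. It left out the chaperones of the endoplasmic reticulum (ER) Hspa5, Hsp90b1, Dnajb9, Dnajb11 and Dnajc3. Hspg2 and Hspbap1, which are not chaperones, were left out too. This gave 80 of the 18804 genes counted. Of the 80, 74 passed the filter on low counts and 6 (Cct8l1, Dnajb7, Dnajc5b, Dnajc5g, Dnajc6 and Hspb9) had too few counts to test. The cells were grown from mesenchymal precursors of the ear of C57BL/6J mice and turned into adipocytes with insulin, dexamethasone, methylisobutylxanthine and troglitazone. All were harvested on day 16 of differentiation. The day 0 group stayed at 37°C, and transfer to 31°C took place on day 15 for the day 1 group and on day 4 for the day 12 group, so the day 12 cells also matured in the cool. There were 5 RNA sequencing libraries in each group, and the sources do not say whether they came from separate mice, cultures or dishes, so p-values measure the spread between these libraries.

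Chaperones bind unfolded proteins and help them fold. HSP70 proteins do so in cycles of ATP hydrolysis that J proteins (the Dnaj genes) start and that exchange factors such as HSP110 proteins and Bag3 end. HSP90 finishes kinases and receptors, the TRiC ring (the Cct genes and Tcp1) folds actin and tubulin, small heat shock proteins hold proteins before they aggregate, and the HSPD1 and HSPE1 chaperonin works inside mitochondria. Many of these genes are induced by heat through the transcription factor HSF1.

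Total counts per library ranged from 64648178 to 133270973, and the coefficient of variation between libraries of a group, from the common dispersion, was 5.25%. Levels are given in CPM, counts scaled by TMM to a common library total, and differences as log2 fold changes ± SE from a quasi-likelihood fit of edgeR over 14293 genes. Calls needed a fold change over 1.5 together with an adjusted p (Benjamini-Hochberg, all genes tested) under 0.05, and only called genes are said to have risen or fallen. Both later groups are compared with the same 5 day 0 libraries. Of 10 adipocyte markers 1 rose and 1 fell at day 1, and 2 rose and 4 fell at day 12. Fabp4, a fatty acid carrier, averaged 828, 1399 and 1617 CPM at days 0, 1 and 12, and there were 1095, 1126 and 464 CPM of the adipokine gene Adipoq at days 0, 1 and 12. Fibroblast genes were high too, with 2649 CPM of Col1a1 at day 0, and Ucp1, Cidea and Cox8b, markers of brown adipocytes, averaged 0.150 CPM or less in each group. Summed fibroblast markers averaged 10054, 8886 and 8280 CPM at days 0, 1 and 12, and mesothelial markers (Msln, Upk3b and Krt19) 1.66, 1.53 and 30.4 CPM. In such bulk samples, fewer cells of a type and less RNA per cell cannot be told apart.

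Most chaperone genes moved by small amounts in both directions, and the calls fell on a few of them. After 1 day, 3 of 74 members (4.05%) rose, against 7.71% of all genes tested, and 6 (8.11%) fell, against 13.4% of all genes. After 12 days, 9 members (12.2%) rose, against 13% of all genes, and 10 (13.5%) fell, against 16.2%. With scaling by total counts alone, which moved the median of all genes at day 12 by 0.19, from 0.01 to a value of 0.21, the day 12 split was 17 higher and 4 lower (23% and 5.41%), beside 20.9% and 11.7% of all genes under that scaling. The share of members called was no higher than that of genes at large, and where the mean was at least 10 CPM it was 15.3% of 59 members against 19% of 8925 genes at day 12. By adjusted p alone, 38 members were higher and 22 lower at day 1 (35.3% and 36.2% of all genes), and 40 and 22 at day 12 (39.2% and 37.4%). At day 1, 33 members were higher and 21 lower with no overlap between groups (28.6% and 28.8% of all genes), and at day 12, 36 and 18 (33% and 31.7%). The median log2 fold change of the 74 members was 0.11 at day 1 and 0.14 at day 12, beside -0.01 and 0.01 for all genes. Summed over the 80 members, day 0 stood at 7459 ± 123 CPM, day 1 at 7685 ± 38.3 CPM and day 12 at 8251 ± 56.0 CPM (SD, n = 5). Hspa8 supplied 19.0% and Hsp90ab1 17.2% of that sum at day 0, so these 2 genes weigh heavily in it.

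**Figure D1:**
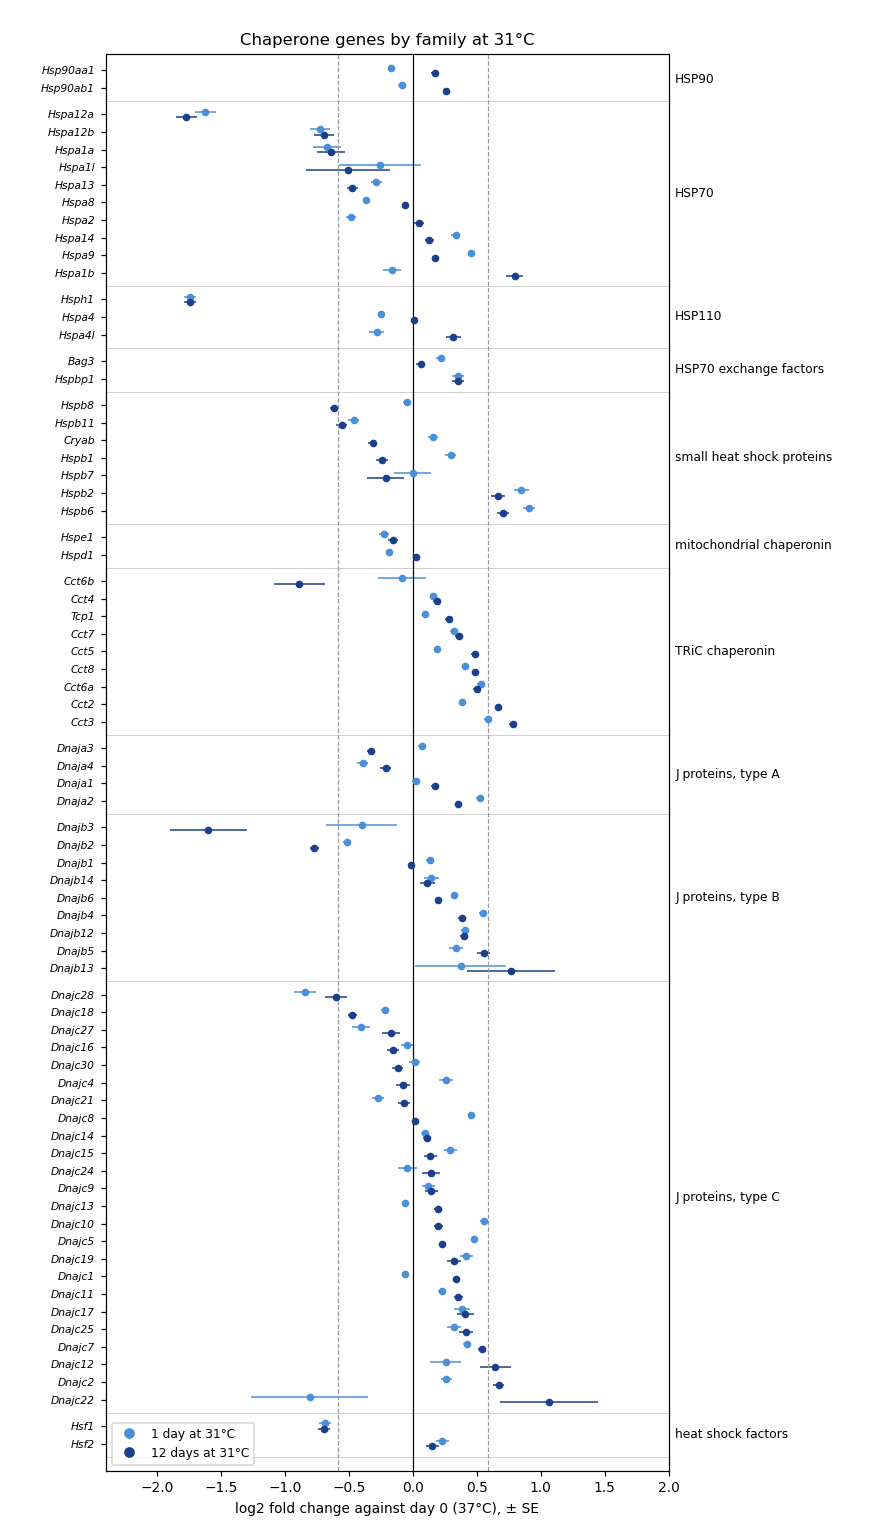
Log2 fold change against day 0 (x axis, ± SE) of the 74 members tested, ordered by family, after 1 day (light points) and 12 days (dark points) at 31°C. Dashed lines mark the fold limit of 1.5, and most points lie between them. Hsph1 and Hspa12a lie farthest to the left at both days, and the 8 ubiquitous TRiC subunits all lie to the right of 0.

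The largest decrease among members with a mean of at least 10 CPM over all libraries was that of Hsph1, the stress-inducible HSP110 exchange factor of HSP70 (chr5:149614287-149636376, GRCm38, minus strand). Its level was 95.5, 92.9, 89.9, 92.4 and 108 CPM in the 5 day 0 libraries, 25.4, 29.1, 29.995, 29.7 and 28.9 CPM at day 1 and 28.4, 27.8, 28.0, 28.5 and 30.6 CPM at day 12. Every library at 31°C was far below the lowest day 0 library, and the day 1 and day 12 groups overlapped. The log2 fold change was -1.74 ± 0.05 at day 1 and -1.74 ± 0.05 at day 12 (adjusted p = 1.59e-19 and 5.76e-20), that is 0.299 and 0.300 times the day 0 level. The other 2 HSP110 genes did not follow it. Hspa4, the constitutive member, went from 186 ± 2.04 CPM to 157 ± 4.86 at day 1 (log2 fold change -0.25 ± 0.03, adjusted p = 4.74e-09) and was 187 ± 3.14 CPM at day 12 (adjusted p = 0.744). Hspa4l was 13.6 to 16.1 CPM at day 0, 11.3 to 13.5 CPM at day 1 and 18.2 to 21.0 CPM at day 12, lower and then higher than day 0 with each difference under the fold limit.

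Hsf1, which encodes the main activator of the heat shock response, fell as well. It stood at 35.3, 35.3, 35.8, 36.8 and 37.6 CPM at day 0, 22.0, 23.8, 22.3, 21.2 and 23.0 CPM at day 1 and 20.2, 24.4, 23.6, 21.7 and 21.9 CPM at day 12. Every library at 31°C was below every day 0 library, and both later groups centred on the same level. The log2 fold change was -0.69 ± 0.04 at day 1 and -0.69 ± 0.04 at day 12 (adjusted p = 1.36e-12 and 6.68e-13). With total-count scaling the day 12 value was -0.50 and no longer past the fold limit. Hsf2, a related factor that is not itself heat-activated, was 13.4 ± 0.804, 15.7 ± 0.946 and 14.9 ± 0.535 CPM, slightly higher at both days and under the fold limit (log2 fold change 0.23 and 0.15). Of 6 further genes of the HSF family and its regulators, Atf5, a factor of the mitochondrial stress response, fell at day 1 (-0.84 ± 0.03, adjusted p = 1.44e-17), and Hsf4 (-0.93 ± 0.08, adjusted p = 2.78e-10) and the proteasome regulator Nfe2l1 (-0.62 ± 0.02, adjusted p = 4.49e-17) fell at day 12. RNA levels of these factors do not measure the activity of their proteins. Of all genes tested, 13.4% fell at day 1 and 16.2% at day 12.

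Genes that textbooks list as HSF1-inducible did not move as one group. Of 20 such genes, members and non-members together, 3 (15%) fell at day 1 (Hsph1, Hspa1a and Chordc1), beside 13.4% of all genes. None rose at day 1 by edgeR or DESeq2, beside 7.71% of all genes by edgeR. At an unadjusted p under 0.05, 5 were higher and 13 lower at day 1. At day 12, 1 rose (5%) and 2 fell (10%), beside 13% and 16.2% of all genes. The abundant inducible members Dnajb1, Hspb1, Bag3 and Hsp90aa1 stayed within the fold limit at both days while Hsph1 and the lowly expressed Hspa1a fell. Dnajb1, the J protein that works with inducible HSP70, was 42.8 to 43.8 CPM at day 0, 46.9 to 48.8 CPM at day 1 and 41.8 to 44.6 CPM at day 12, with log2 fold changes of 0.13 ± 0.03 and -0.01 ± 0.03. Bag3, which pairs HSP70 with small heat shock proteins, was 128 ± 2.80, 149 ± 6.56 and 134 ± 7.26 CPM.

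Since the inducible members differed in direction, promoters of the members were searched for the heat shock element, the DNA site of HSF1. Whether a match goes with direction was not tested. The search looked in the 250 bases before each start site in RefSeq (GRCm38.p6) for the 2-unit motif, which is GAA, any 2 bases and TTC, or TTC, any 2 bases and GAA. Each is its own reverse complement, so both strands are covered, and the motifs can overlap. Of the 80 members, 63 had a promoter there, and 16 of the 63 (25.4%) held a match, against 14.5% of 27025 genes and 12.8% of 32851 promoters in all. Among 15 textbook HSF1-inducible genes with a promoter there, 8 (53.3%) held a match. Dnajb1 and Bag3 held none, and Hsp90aa1, Hspa8 and Hsf1 had no promoter there. The 3-unit form (a further GAA or TTC block in alternation, again after any 2 bases) was in 3 of the 63 (Hspd1, Hspe1 and Dnajb6), or 4.76%, against 0.514% of all genes. Hspd1 and Hspe1 hold the same site, and Hspa1a and Hspa1b have near-identical windows. Each gene of these pairs is counted in the shares, which raises those of the members. Stretches of 5 inducible members, picked from those that held a match, are printed to show what these matches look like. They run 5′ to 3′ on the gene's strand, with the matched bases in capitals. Hsph1 (chr5:149636351-149636380, minus strand) and Hspd1 (chr1:55088053-55088082, minus strand) are shown as 30 bases around the match, since annotated exons cover part of their windows, and Hspa1a (chr17:34972157-34972406, minus strand), Hspa1b (chr17:34959239-34959488, minus strand) and Hspb1 (chr5:135887669-135887918, plus strand) as the 250 bases up to the start.
Hsph1: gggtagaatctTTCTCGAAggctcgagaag
Hspd1: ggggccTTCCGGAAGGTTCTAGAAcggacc
Hspa1a: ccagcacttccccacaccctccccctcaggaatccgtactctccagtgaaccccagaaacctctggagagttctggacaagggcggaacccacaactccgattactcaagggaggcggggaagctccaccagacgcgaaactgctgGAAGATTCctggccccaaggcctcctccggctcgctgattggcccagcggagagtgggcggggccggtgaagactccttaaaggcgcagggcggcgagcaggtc
Hspa1b: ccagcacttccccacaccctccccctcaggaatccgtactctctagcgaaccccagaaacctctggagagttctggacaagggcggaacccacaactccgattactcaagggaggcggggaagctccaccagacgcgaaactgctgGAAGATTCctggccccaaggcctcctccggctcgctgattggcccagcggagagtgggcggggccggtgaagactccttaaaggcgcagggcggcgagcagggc
Hspb1: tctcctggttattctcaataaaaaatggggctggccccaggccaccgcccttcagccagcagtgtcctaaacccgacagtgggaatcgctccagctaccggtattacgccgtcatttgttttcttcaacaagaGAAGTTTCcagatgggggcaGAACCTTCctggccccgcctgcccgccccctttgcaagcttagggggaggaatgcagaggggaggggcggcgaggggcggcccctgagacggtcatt
The Hspd1 site is a run of alternating TTC and GAA blocks that holds 3 overlapping 2-unit matches. It lies in the stretch that Hspd1 shares with Hspe1, whose gene is read in the other direction: 215 bases of the 250-base windows of these genes are the same DNA. The match in Hsph1 begins 33 bases before the start, and those of Hspa1a and Hspa1b begin at the same distance from theirs, 104 bases. A match is a description of the letters, and binding of HSF1 was not measured.

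Hspa1a and Hspa1b, the neighbouring heat-inducible HSP70 genes on chromosome 17, went in opposite directions at day 12. Hspa1a was 5.16, 5.33, 5.56, 5.94 and 5.72 CPM at day 0, 3.83, 3.03, 3.88, 2.90 and 3.68 CPM at day 1 and 2.495, 3.95, 3.52, 3.89 and 3.95 CPM at day 12. Every library at 31°C was below the day 0 libraries (log2 fold change -0.67 ± 0.11 at day 1 and -0.64 ± 0.11 at day 12, adjusted p = 7.51e-06 and 1.12e-05). The day 12 call rests on 1 library: without day 12 replicate 1 the log2 fold change was -0.53, under the fold limit, as it was with total-count scaling (-0.45). Hspa1b was 9.20, 9.48, 7.94, 9.06 and 9.34 CPM at day 0, 7.91, 8.83, 8.68, 6.56 and 8.19 CPM at day 1 and 16.9, 15.4, 14.8, 16.0 and 15.1 CPM at day 12. The day 0 and day 1 values overlapped, and all 5 day 12 libraries were above both (log2 fold change 0.80 ± 0.07 against day 0, adjusted p = 1.13e-10, and 0.96 ± 0.07 against day 1, adjusted p = 9.82e-12). The promoter stretches printed for these genes are identical at 247 of 250 bases. The transcripts are near copies as well: 66.3% of the 50-base words of Hspa1a and 62.3% of those of Hspa1b also occur in transcripts of other genes, mainly in each other. How the counting dealt with reads that fit both is not given in the sources used here, so the values of these 2 genes are uncertain. In Hspa1a, 19.0% of exon bases also overlap Gm20481 on the opposite strand.

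Hspa8, the constitutive cytosolic HSP70 and the most abundant member by CPM at day 0, dipped at day 1 and was near its start level at day 12. It was 1446, 1403, 1328, 1426 and 1469.9 CPM at day 0, 1140.4, 1098, 1067, 1108 and 1082 CPM at day 1 and 1350.2, 1383, 1350.4, 1343 and 1356 CPM at day 12. All day 1 libraries were below all others, by -0.36 ± 0.03 in log2 fold change against day 0 (adjusted p = 2.13e-11), which is under the fold limit. At day 12 the groups overlapped (-0.06 ± 0.03, adjusted p = 0.0484), and the sign of that small difference turned with total-count scaling (0.13). Pseudogenes and other genes share 39.4% of its 50-base words. Per kilobase of exon at day 0, Hsp90ab1 was highest at 429 CPM per kb, followed by Hspa8 at 329, Hsp90aa1 at 97.2 and the mitochondrial Hspa9 at 85.8.

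Of the 10 HSP70 genes, 3 (30%) fell at each day (Hspa12a, Hspa12b and Hspa1a), beside 13.4% of all genes at day 1 and 16.2% at day 12. At day 12, 1 (10%) rose (Hspa1b), beside 13% of all genes. Hspa12a, a distant family member with an atypical ATPase domain, was 10.7, 10.9, 10.9, 12.5 and 9.94 CPM at day 0, 3.71, 3.37, 3.67, 3.70 and 3.38 CPM at day 1 and 3.31, 3.37, 3.13, 2.58 and 3.64 CPM at day 12. The groups at 31°C did not overlap day 0, and the log2 fold change was -1.62 ± 0.08 (adjusted p = 8.61e-15) and -1.77 ± 0.08 (adjusted p = 9.1e-16), the lowest of all 74 members at day 12. Its relative Hspa12b, known from endothelial cells, went from 6.76 to 7.79 CPM to 3.98 to 4.99 at day 1 and 3.95 to 5.07 at day 12 (log2 fold change -0.73 ± 0.08 and -0.69 ± 0.08, adjusted p = 1.46e-08 and 2.31e-08). Endothelial markers were scarce. Pecam1, Cdh5 and Tek summed to 0.432 to 0.581 CPM at day 0, 0.265 to 0.778 at day 1 and 0.782 to 1.21 at day 12, with Cdh5 at 0.0386 CPM or less on average. Pecam1 rose at day 12 (1.31 ± 0.32, adjusted p = 0.000753), where Hspa12b was below day 0, and their part in the Hspa12b values was not tested. With total-count scaling the day 12 value of Hspa12b was -0.50 and not past the limit.

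The other HSP70 genes stayed inside the fold limit. Hspa2, Hspa13 and Hspa14 are named here after their values were seen. Hspa2, best known from spermatocytes, was 21.0 ± 1.08 CPM, dipped to 15.0 ± 0.625 at day 1 (log2 fold change -0.48 ± 0.04, adjusted p = 2.8e-10) and was 21.8 ± 0.436 at day 12. Hspa13, an HSP70 of the secretory compartment, was lower at both days (-0.28 and -0.47), and Hspa14, which sits at the ribosome, was higher (0.33 and 0.13). Hspa1l, under 1 CPM in every library, did not differ by adjusted p at either day. The cytosolic Hspa8 and the mitochondrial Hspa9 had differences of opposite sign at day 1. Hspa9, the mitochondrial HSP70 that pulls proteins in through the inner membrane, was 348 to 379 CPM at day 0 and 498 to 514 CPM at day 1 (log2 fold change 0.45 ± 0.02, adjusted p = 5.54e-14).

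The HSP90 genes of the cytosol moved together and by little. Hsp90ab1, the constitutive form, was 1305, 1299.9, 1274, 1268 and 1279 CPM at day 0, 1259, 1176, 1188, 1219 and 1205 CPM at day 1 and 1529.6, 1579.5, 1528, 1534 and 1523 CPM at day 12. The inducible Hsp90aa1 was 384, 395, 364, 373 and 395 CPM at day 0, 345, 342, 351, 333 and 332 CPM at day 1 and 429, 424, 434, 421 and 447 CPM at day 12. For both genes the 3 groups did not overlap, with day 1 lowest and day 12 highest. Log2 fold changes against day 0 were -0.09 ± 0.02 and 0.26 ± 0.02 for Hsp90ab1 and -0.17 ± 0.03 and 0.17 ± 0.03 for Hsp90aa1, and against day 1 the day 12 values were 0.35 and 0.34, all under the fold limit. Other genes share 47.5% of the 50-base words of Hsp90aa1.

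Around HSP90 and HSP70 stand co-chaperones that bring clients or set the ATP cycle. None of 23 such genes rose against day 0 by edgeR or DESeq2, beside 7.71% of all genes at day 1 and 13% at day 12 by edgeR. At an unadjusted p under 0.05, 7 were higher at day 1 and 9 at day 12. After 1 day 4 fell: Chordc1 (-1.31 ± 0.04, adjusted p = 6.56e-18), the cyclophilin Ppid (-1.28 ± 0.05, adjusted p = 2.76e-17), the HSP90 ATPase activator Ahsa2 (-1.11 ± 0.05, adjusted p = 1.01e-15) and Tomm34, which carries mitochondrial precursors (-0.88 ± 0.04, adjusted p = 6.6e-15). After 12 days 2 had fallen, Ppid (-1.43) and Tomm34 (-0.86). The 4 at day 1 and the 2 at day 12 are 17.4% and 8.7% of the 23, beside 13.4% and 16.2% of all genes. Chordc1 and Ahsa2 were higher at day 12 than at day 1, by 0.87 ± 0.04 (adjusted p = 1.77e-14) and 0.78 ± 0.05 (adjusted p = 1.06e-12), as was Fkbp5, a glucocorticoid-induced immunophilin (0.67 ± 0.05, adjusted p = 6.45e-12).

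**Figure D2:**
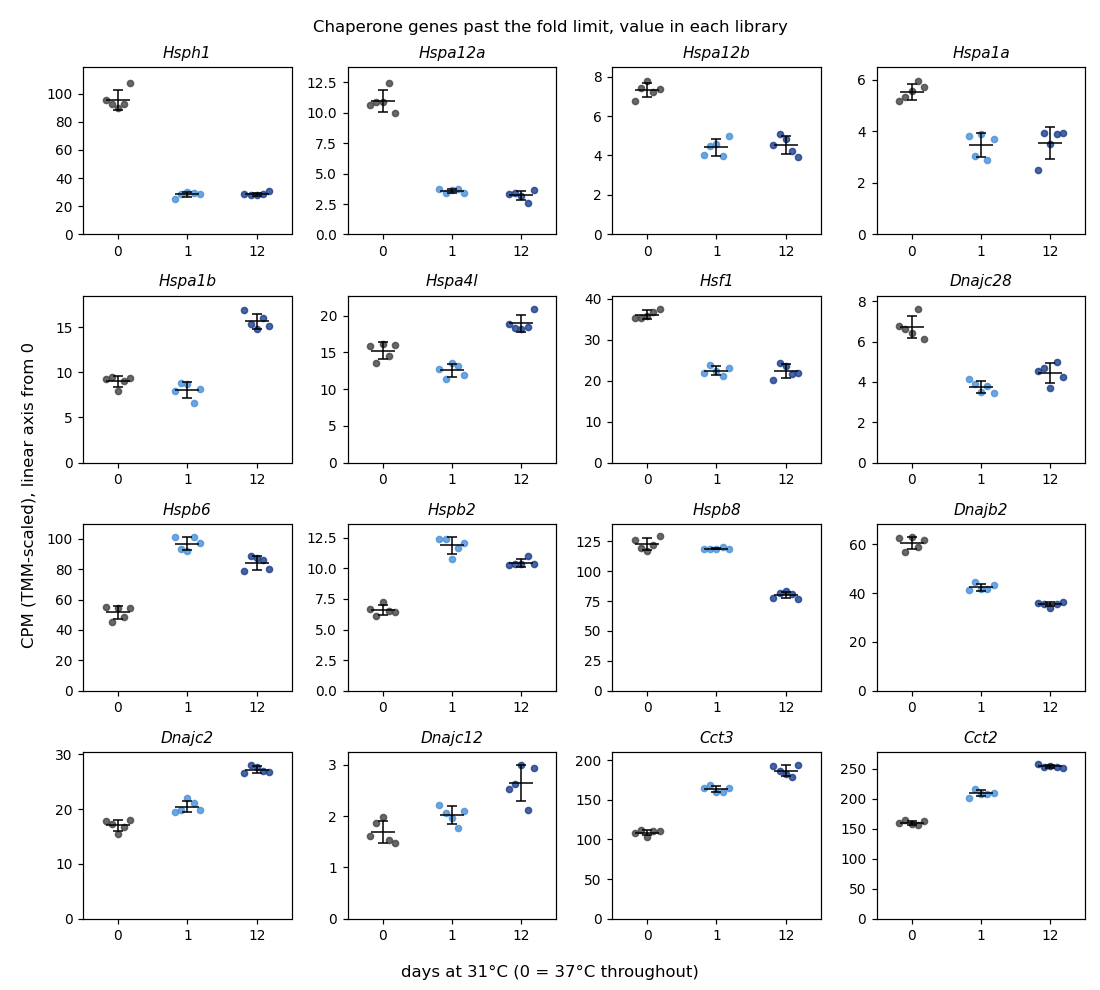
Level in each of the 15 libraries (y axis, TMM-scaled CPM, linear from 0) of 16 members that passed the fold limit in at least 1 of the 3 comparisons and had a mean over 1 CPM, by days at 31°C (x axis). Points are libraries, and bars are the mean ± SD of 5. Hsph1, Hspa12a and Hsf1 fell at day 1 and were at the same height at day 12, while Hspb8 and Hspa1b passed the fold limit against day 0 in the day 12 group and not in the day 1 group.

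Small heat shock proteins split by gene and by time. Hspb6, a small heat shock protein of muscle that also occurs in other tissues, was 55.0, 45.5, 54.1, 48.2 and 54.6 CPM at day 0, 101, 93.1, 92.2, 101 and 97.0 CPM at day 1 and 78.5, 88.4, 87.2, 86.1 and 79.9 CPM at day 12. Both groups at 31°C were above day 0 in every library, by 0.91 ± 0.05 (adjusted p = 2.28e-14) and 0.71 ± 0.05 (adjusted p = 1.64e-12). Hspb2, a small heat shock protein found mainly in muscle, rose from 6.08 to 7.28 CPM to 10.8 to 12.4 at day 1 and 10.3 to 11.048 at day 12 (0.85 ± 0.06 and 0.67 ± 0.06, adjusted p = 2.49e-12 and 1.54e-10). Hspb2 and Cryab, which encodes αB-crystallin, lie head to head on chromosome 9 and overlap on opposite strands over 30.2% of the exon bases of Hspb2, so without a stated strand their reads cannot be told apart there. Cryab itself was 89.4 ± 6.00, 99.7 ± 3.14 and 71.9 ± 2.85 CPM, lower at day 12 than at day 0 (-0.31 ± 0.04) and at day 1 (-0.47 ± 0.04), so it did not move with Hspb2 at day 12. Muscle markers summed over 5 genes to 1.98 to 2.51 CPM at day 0, 1.499 to 2.44 at day 1 and 0.527 to 1.15 at day 12, and Ckm was at or near 0. Of the 3 tested, none rose at either day by edgeR or DESeq2 (0 higher at an unadjusted p under 0.05), and 1 fell at day 1 and 2 at day 12. The part of muscle cells in the Hspb6 and Hspb2 values was not tested.

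Hspb8, the partner of Bag3 in the disposal of damaged proteins, fell late. It was 126, 119, 117, 122 and 129 CPM at day 0, 119, 119, 118, 120.2 and 119 CPM at day 1 and 77.3, 81.7, 83.5, 81.0 and 76.8 CPM at day 12. The day 1 values lay within the day 0 range, and the day 12 values lay below all others (-0.62 ± 0.03, adjusted p = 3.31e-15). That value is close to the fold limit and was -0.42 with total-count scaling and -0.58 in the 11 libraries that share 1 run of label numbers, both short of it. Hspb1, the general small heat shock protein, was 49.0 to 57.8 CPM at day 0, 58.7 to 68.8 CPM at day 1 and 42.1 to 46.6 CPM at day 12, above and then below day 0 (0.30 ± 0.04 and -0.24 ± 0.04), with no overlap between groups. Day 12 was lower than day 1 for Hspb8 (-0.57 ± 0.03) and Hspb1 (-0.54 ± 0.04), both just inside the fold limit. A pseudogene shares much of Hspb1, with 50.1% of its 50-base words found in other genes. Hspb11, named after its values were seen, carries the family symbol and encodes a subunit of intraflagellar transport. It was lower at both days (-0.46 and -0.56) within the limit, and Hspb7 did not differ at either day by adjusted p.

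TRiC subunits were higher at 31°C, mostly by less than the fold limit. All 8 ubiquitous subunits were higher than day 0 by adjusted p at both days (35.3% and 39.2% of all genes). For all 8 the groups did not overlap (28.6% and 33% of all genes were higher without overlap). Of the 8, 1 passed the fold limit at day 1 and 2 at day 12 (7.71% and 13% of all genes rose). The other TRiC gene tested, Cct6b, fell at day 12 and is given below. Cct3 was 108, 112, 103, 111 and 110.2 CPM at day 0, 165, 168, 159, 160.2 and 165 CPM at day 1 and 193, 187, 182, 179 and 194 CPM at day 12. Its log2 fold change was 0.59 ± 0.03 at day 1 and 0.78 ± 0.03 at day 12 (adjusted p = 9.94e-15 and 2.06e-17). The day 1 value sits at the limit of 0.585 and missed it when day 0 replicate 1 (0.58), day 0 replicate 3 (0.57) or day 1 replicate 2 (0.58) was left out, with the run of library numbers as a covariate (0.58) and with a minimum mean of 10 CPM (0.54). Cct2 went from 159.8, 164, 158, 156 and 163 CPM at day 0 to 202, 216, 208, 209 and 209 CPM at day 1 and 257, 252, 255, 252 and 252 CPM at day 12, so that the groups stood apart in order of time. Its day 12 log2 fold change was 0.66 ± 0.02 (adjusted p = 1.44e-17).

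The other 6 subunits were higher by 0.09 (Tcp1) to 0.53 (Cct6a) at day 1 and by 0.19 (Cct4) to 0.50 (Cct6a) at day 12, all under the fold limit. Cct5, Cct6a and Cct8 passed it at day 12 with total-count scaling (0.68, 0.69 and 0.68), where the median of all genes was 0.21. Subunits differed in when they moved. Cct6a was at 125 ± 2.35 CPM at day 1 and 123 ± 5.95 at day 12, while Cct5 was at 142 ± 2.95 and 175 ± 4.92 (0.29 ± 0.03 between these days, adjusted p = 4.72e-10). Over the 9 TRiC genes tested the median log2 fold change was 0.32 at day 1 and 0.48 at day 12, beside -0.01 and 0.01 for all genes. Summed over all TRiC genes, day 0 stood at 1105 ± 17.1 CPM, day 1 at 1384 ± 16.1 CPM and day 12 at 1525 ± 28.5 CPM (SD, n = 5). Of the exon bases, 12.5% of Cct6a and 14.2% of Tcp1 overlap other genes on the opposite strand.

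**Figure D3:**
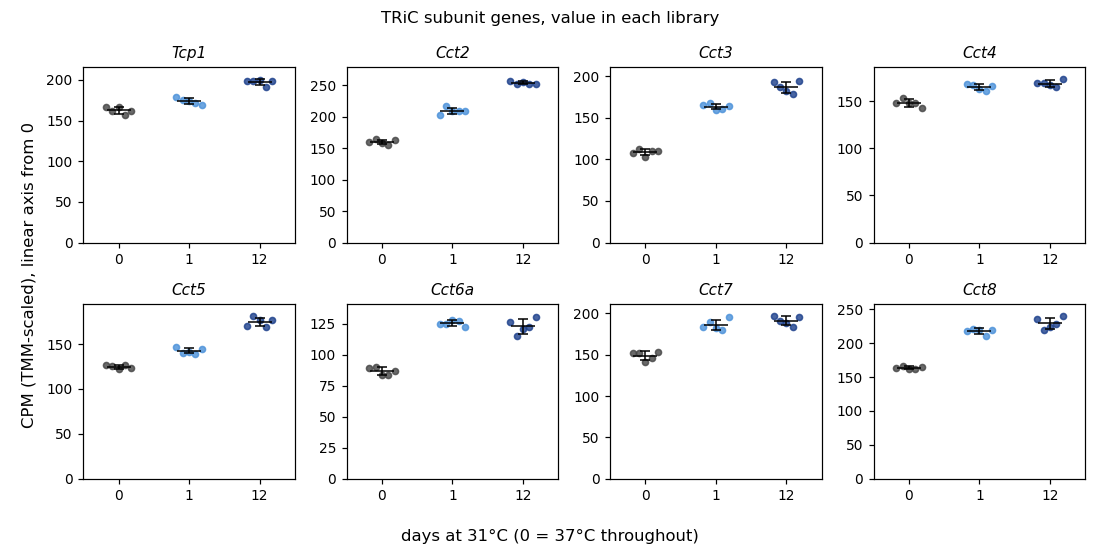
Level of the 8 ubiquitous TRiC subunit genes in each library (y axis, TMM-scaled CPM, linear from 0) by days at 31°C (x axis), with bars for the mean ± SD of 5. In each panel every library at 31°C is above every day 0 library. Tcp1, Cct2, Cct3 and Cct5 are higher again at day 12 than at day 1, without overlap.

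The remaining TRiC gene tested was low and went the other way at day 12. Cct6b, a subunit best known from testis, was 0.912 to 1.33 CPM at day 0, 0.865 to 1.23 CPM at day 1 and 0.399 to 0.775 CPM at day 12. It fell at day 12 against day 0 (-0.89 ± 0.20, adjusted p = 0.000306) and against day 1 (-0.80 ± 0.20, adjusted p = 0.0012). Prefoldin hands actin and tubulin to TRiC. Of 8 genes of prefoldin and other TRiC partners tested, none rose at day 1 by edgeR or DESeq2, beside 7.71% of all genes by edgeR. At an unadjusted p under 0.05, 6 were higher at day 1. Pfdn1 alone rose at day 12 (0.60 ± 0.03, adjusted p = 2.26e-15), beside 13% of all genes. The median of these 8 genes was 0.14 at day 1 and -0.01 at day 12. Dividing-cell markers rose at day 12 in the same cultures. All 5 (Mki67, Top2a, Cdk1, Ccnb1 and Aurkb) were called higher, and their summed level was 48.8 to 59.7 CPM at day 0, 57.3 to 68.1 at day 1 and 146 to 175 at day 12. At day 1, 1 of the 5 was called and 2 were higher by adjusted p alone, with a median log2 fold change of 0.22. The part of dividing cells in the TRiC values was not tested.

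J proteins, of which 37 of 41 were tested, were spread widely in both directions. By adjusted p alone, 21 were higher and 6 lower at day 1 (35.3% and 36.2% of all genes), and 22 and 9 at day 12 (39.2% and 37.4% of all genes). Past the fold limit at day 1, none rose by edgeR or DESeq2 and 1 (2.70%) fell, beside 7.71% and 13.4% of all genes by edgeR. At an unadjusted p under 0.05, 22 J proteins were higher at day 1. At day 12, 4 rose (10.8%) and 3 fell (8.11%), beside 13% and 16.2% of all genes. The median log2 fold change was 0.14 and 0.17, beside -0.01 and 0.01 for all genes. Dnajb2, a neuron-enriched J protein that passes ubiquitinated clients to the proteasome, was 62.5, 56.9, 62.8, 58.9 and 61.6 CPM at day 0, 41.1, 44.6, 41.6, 41.7 and 43.1 CPM at day 1 and 35.9, 35.6, 34.0, 35.6 and 36.5 CPM at day 12. The 3 groups did not overlap, and the log2 fold change went from -0.51 ± 0.03 at day 1, inside the limit, to -0.77 ± 0.03 at day 12 (adjusted p = 4.4e-16). With total-count scaling the latter was -0.58, just inside the limit.

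Dnajc2, which with Hspa14 forms the chaperone complex at the ribosome's exit tunnel, rose by day 12. It was 17.8, 17.2, 15.5, 16.8 and 17.9 CPM at day 0, 19.4, 19.9, 21.9, 21.1 and 19.9 CPM at day 1 and 26.6, 28.1, 27.6, 26.9 and 26.7 CPM at day 12, with groups in order of time and no overlap. The log2 fold change was 0.26 ± 0.04 at day 1 and 0.67 ± 0.04 at day 12 (adjusted p = 7.85e-13). Dnajc12, a J protein that helps aromatic amino acid hydroxylases fold, was scarcer and rose from 1.47 to 1.98 CPM at day 0 to 2.12 to 2.99 CPM at day 12 (0.65 ± 0.12, adjusted p = 3.32e-05), with 1.76 to 2.22 CPM at day 1. In the 11 libraries that share 1 run of label numbers its value was 0.56, short of the limit. Dnajc28, a little-studied J protein, fell from 6.11 to 7.61 CPM to 3.46 to 4.14 at day 1 (-0.84 ± 0.08, adjusted p = 3.69e-09) and was 3.70 to 5.00 CPM at day 12 (-0.60 ± 0.08, adjusted p = 5.87e-07). The day 12 call was lost when day 0 replicate 4 was left out (-0.55), and likewise for replicates 3 (-0.54) and 5 (-0.58) of day 12. With total-count scaling the day 12 value of Dnajc28 was -0.41, short of the limit.

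The remaining calls lie under 1 CPM. Dnajb13, a sperm-flagellum J protein, was 0.120 to 0.187 CPM at day 0 and 0.121 to 0.385 CPM at day 12, with overlapping groups, and its call (0.77 ± 0.34, adjusted p = 0.0459) was lost in 11 of the 15 fits that left out 1 library, with values from 0.62 to 0.81 among those. With the replicate number as a block it was 0.74, with an adjusted p of 0.0721. Dnajc22 was 0.109 to 0.167 CPM at day 0, 0.0256 to 0.181 at day 1 and 0.155 to 0.431 at day 12 (1.07 ± 0.38, adjusted p = 0.015), with overlap, and the call was lost without day 12 replicate 1 (0.89). Dnajb3, another testis gene, was 0.476 to 0.978 CPM at day 0 and 0.126 to 0.300 at day 12 (-1.60 ± 0.30, adjusted p = 4.41e-05).

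Among abundant J proteins, the following are named after their values were seen, as examples inside the fold limit. Dnaja2, a cytosolic partner of Hspa8, went from 187 to 208 CPM to 279 to 290.2 at day 1 and 247 to 259.8 at day 12 (0.52 ± 0.03 and 0.35 ± 0.03), while the related Dnaja1 was 126 to 143, 134 to 146 and 153 to 156 CPM (0.02 ± 0.03 and 0.17 ± 0.03). Dnajb4 was higher by 0.55 and 0.38, and Dnajc7, which links HSP70 and HSP90, by 0.43 and 0.54. Other J proteins were high at day 1 and nearer to day 0 later. Dnajc5, the cysteine string protein of vesicles, was higher by 0.48 and 0.23, the ER disulfide reductase Dnajc10 by 0.56 and 0.20, and the splicing-related Dnajc8 by 0.45 and 0.02. Dnajc8 was 86.0 to 90.8 CPM at day 0, 118 to 126 at day 1 and 88.4 to 90.8 at day 12, so day 12 overlapped day 0 and lay below day 1 (-0.43 ± 0.03). Dnajc1, of the ER membrane, did the reverse, with 77.1 to 79.7, 72.7 to 78.4 and 97.1 to 102 CPM.

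Members that act in mitochondria were mixed. Of 10, by adjusted p alone 6 were higher and 3 lower at day 1 (35.3% and 36.2% of all genes), and 4 were higher and 4 lower at day 12 (39.2% and 37.4%, so at the share of genes at large), and Dnajc28 was the single call, lower at both days. Summed over these genes, day 0 stood at 760.0 ± 13.3 CPM, day 1 at 882 ± 9.27 CPM and day 12 at 803 ± 7.01 CPM (SD, n = 5), with Hspa9 as the largest part. Hspa9 was 417, 420.1, 415, 418 and 420.1 CPM at day 12, between the other groups (0.18 ± 0.02 against day 0, adjusted p = 6.72e-07, and -0.28 ± 0.02 against day 1, adjusted p = 6.32e-10). The chaperonin pair moved the other way at day 1. Hspd1 was 180.4, 187, 178, 178 and 181 CPM at day 0, 150.5, 162, 162, 161 and 159 CPM at day 1 and 181, 181, 185, 183 and 190.5 CPM at day 12, lower at day 1 (-0.19 ± 0.03, adjusted p = 1.06e-06) and not different at day 12 by adjusted p (0.02 ± 0.03, adjusted p = 0.405). Hspe1, its lid, was 53.2 to 61.0, 47.3 to 49.7 and 47.6 to 54.4 CPM (-0.22 ± 0.04 and -0.16 ± 0.04). Other genes share 42.1% of the 50-base words of Hspd1 and 22.8% of those of Hspe1. Dnaja3, the mitochondrial partner of Hspa9, named after its values were seen, was lower at day 12 (-0.33 ± 0.03, adjusted p = 1.14e-09). Of 14 mitochondrial chaperone partners and proteases, the protease subunit Afg3l2 rose at day 1 (0.87 ± 0.03, adjusted p = 2.21e-18) and the iron-sulfur J protein Hscb fell at day 12 (-0.63 ± 0.06, adjusted p = 3.66e-09). Of all genes, 7.71% rose at day 1 and 16.2% fell at day 12.

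Most of 15 listed ER chaperone and folding genes, none of them members, were called lower. Of the 15, 10 fell at day 1 and 12 at day 12 (13.4% and 16.2% of all genes fell), and all 15 were lower by adjusted p alone. None rose by edgeR or DESeq2, and 0 were higher at an unadjusted p under 0.05. Their median log2 fold change was -1.20 and -0.89, beside 0.11 and 0.14 for the 74 members. The ER HSP70 gene Hspa5 was 1289, 1239, 1253, 1228 and 1318 CPM at day 0, 429.5, 428, 425, 426 and 438 CPM at day 1 and 648, 637, 639, 626 and 678 CPM at day 12. The ER HSP90 gene Hsp90b1 was 1462 to 1522 CPM at day 0, 638 to 668 CPM at day 1 and 594 to 626 CPM at day 12. These are the ER relatives of Hspa8 and Hsp90ab1, whose log2 fold changes were -0.36 and -0.06 (Hspa8) and -0.09 and 0.26 (Hsp90ab1), beside -1.56 and -0.97 for Hspa5 and -1.20 and -1.30 for Hsp90b1. The ER J proteins that the name rule leaves out stayed inside the fold limit at both days, with log2 fold changes of -0.38 and -0.15 for Dnajb9, -0.10 and -0.11 for Dnajb11 and -0.23 and -0.55 for Dnajc3. The 9 members of the ER or secretory membrane, which the name rule keeps, were mixed. By adjusted p alone 4 were higher and 2 lower at day 1 (35.3% and 36.2% of all genes), and 5 and 3 at day 12 (39.2% and 37.4%). Against day 0, Dnajc22, under 1 CPM, was the single call, higher at day 12.

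**Figure D4:**
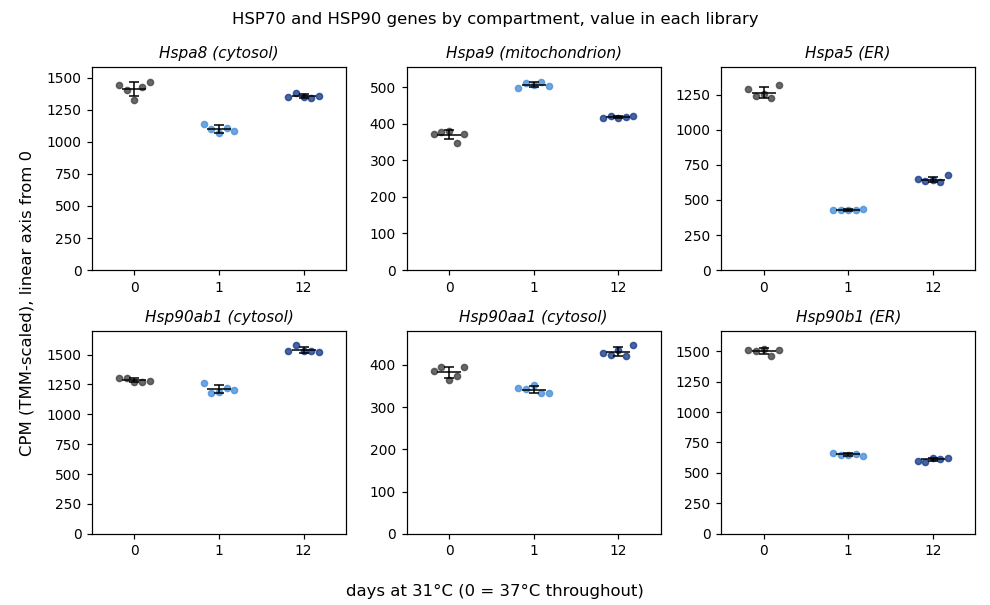
Level of HSP70 genes (top row) and HSP90 genes (bottom row) in each library (y axis, TMM-scaled CPM, linear from 0) by days at 31°C (x axis), with bars for the mean ± SD of 5. Cytosolic Hspa8, Hsp90ab1 and Hsp90aa1 were lowest at day 1, mitochondrial Hspa9 was highest at day 1, and the ER genes Hspa5 and Hsp90b1 were below their day 0 values at both days.

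Between day 1 and day 12 the differences of members were smaller, with a median absolute log2 fold change of 0.20, beside 0.31 at day 1 and 0.34 at day 12 against day 0 (0.25, 0.30 and 0.35 over all genes). In this comparison 3 members rose (4.05%, against 10.6% of all genes) and 2 fell (2.70%, against 8.53%), and the median was 0.01 for members and for all genes. Those that rose were Hspa1b, Dnajc22 and Hspa4l (0.60 ± 0.06, adjusted p = 2.36e-09), and those that fell were Cct6b and Dnajb3 (-1.20 ± 0.31, adjusted p = 0.00162). Hspa4l stood at 12.8, 11.3, 13.5, 13.2 and 12.0 CPM at day 1 and 18.9, 18.3, 18.2, 18.4 and 21.0 CPM at day 12, without overlap. Its value is near the fold limit and missed it when replicate 2 (0.56) or 5 (0.58) of day 1, or replicate 5 of day 12 (0.56), was left out. By adjusted p alone, 27 members were higher and 25 lower, beside 34.3% and 32.8% of all genes, and 19 and 21 did not overlap between the days (26.5% and 25.9% of all genes). The higher ones included both HSP90 genes, Hspa8, Hspa4 and Hspd1, which had all been below day 0 at day 1. The lower ones included Hspa9, Dnajc8, Cryab, Hspb1 and Hspb8.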

How the data were processed

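RNA of cultured adipocytes was sequenced in 15 libraries, 5 for each of 0, 1 and 12 days at 31°C, grouped by their labels. The authors aligned reads to mm10 with TopHat2 2.0.13 and Bowtie2 2.2.1 and deposited raw counts of reads per gene from HTSeq. The annotation release, the strand setting and the handling of reads that fit several genes are not given in the sources used here. The authors' log2 values and their tables of fold changes and p-values from DESeq2 were not used.

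The members and all gene lists were chosen with earlier results of these data known, so they are not independent of them. Genes were filtered with filterByExpr (minimum count 10), scaled by TMM and compared in edgeR 4.0.16 (R 4.3.3) by its quasi-likelihood method, with 15 libraries in 1 fit, no covariate and Benjamini-Hochberg adjustment over 14293 genes. CPM values were computed from these counts. Totals of 64648178 to 133270973 counts mean that a count of 0 allows up to 0.0238 to 0.0428 CPM (3 counts over the TMM-scaled total, counting error only). Coordinates, exon overlaps and 50-base words came from GENCODE vM21 (GRCm38), and promoters from RefSeq (GRCm38.p6). The fit was tested on simulated data with 200 changed genes.

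Named members were a core set fixed by name, the 8 called higher and 8 called lower with the largest fold change in each comparison among those with a group mean of at least 1 CPM, and others named after their values were seen, as stated beside them. Alternatives were other scalings (DESeq2 size factors, total counts), the Wald test of DESeq2 1.42.0, other filters, the adjusted p alone, a replicate block, each library left out, and the library numbers in the labels, of which 11 share 1 run, as a subset or covariate.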

Additional observations from a re-analysis of the deposited data

Results flagged for a closer look

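Single libraries stood apart from the other 4 of their group in 14 of the 153 groups of values examined for 51 members, by the size of the gap to the nearest library relative to the range of the group. Chance picks out about 1 in 20 such groups. At day 0 these were Dnajb3 in replicate 4 (0.978 CPM, next 0.611), Hspa1b in replicate 3 (7.94 CPM, next 9.06) and Hspa9 in replicate 4 (348 CPM, next 372). At day 1 they were Hsph1 (25.4 CPM, next 28.9), Hspd1 (150.5 CPM, next 159) and Hspa13 (53.3 CPM, next 59.2), all lowest in replicate 1, Dnajb1 (48.8 CPM, next 47.3) and Hspb8 (120.2 CPM, next 119), both highest in replicate 4, and Dnajb3 in replicate 3 (0.315 CPM, next 0.480). At day 12 they were Hsp90ab1 in replicate 2 (1579.5 CPM, next 1533.5), Hspa4l (21.0 CPM, next 18.9) and Hsph1 (30.6 CPM, next 28.5), both highest in replicate 5, and Hspb2 (11.05 CPM, next 10.4) and Tcp1 (191 CPM, next 199) in replicate 4. Leaving out any of these libraries changed no call of Hsph1, Hspa1b, Hspb2 or Tcp1, and the call of Hspa4l between day 1 and day 12 was lost without day 12 replicate 5.

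By the edgeR test of day 12 against day 1, 27 members were higher and 25 lower by adjusted p alone (34.3% and 32.8% of all genes), and 5 also passed the fold limit, 3 higher (10.6% of all genes) and 2 lower (8.53%). Hspa1b was higher at day 12 than at day 1 by 0.96 in log2 fold change (adjusted p = 9.82e-12, higher in 5 of 5 libraries), Hspa4l by 0.60 (adjusted p = 2.36e-09, higher in 5 of 5) and Dnajc22, at under 0.5 CPM, by 1.87 (adjusted p = 0.0005, with overlapping groups). Cct6b had a log2 fold change of -0.80 (adjusted p = 0.0012) and Dnajb3 of -1.20 (adjusted p = 0.00162), both without overlap.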

How the results depend on the processing

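Under the alternatives, 7 values of named members turned sign, all of them small and not called: Cct6b at day 1 in the 11 libraries of 1 run of label numbers (0.11), Dnaja1 at day 1 with a mean of at least 10 CPM required (-0.023) and without day 0 replicate 3 (-0.0056, with 1 library left out -0.0056 to 0.037), Hspa4 at day 12 with that minimum (-0.0095), and Dnajb1 (0.18), Hspa8 (0.13) and Hspe1 (0.038) at day 12 with total-count scaling. The cause was not tested. With at least 10 CPM, which tests fewer genes, 1 member rose and 2 fell at day 1 (4.68% and 8.35% of all genes under that filter). At day 12, 5 rose (8.47% of members) and 4 fell (6.78%), beside 7.13% and 11.8% of all genes. Between days 0 fell, beside 5.43% of all genes. By adjusted p alone, without the fold limit, the counts were 38 and 22, 40 and 22, and 27 and 25. Of all genes, 35.3% and 36.2%, 39.2% and 37.4%, and 34.3% and 32.8% were higher and lower. With total-count scaling 17 rose and 4 fell at day 12 (20.9% and 11.7% of all genes). With the run of library numbers as a covariate 2 rose at day 1 (7.62% of all genes), the call of Cct3 being lost (0.58), and no other named member's call changed. When each library was left out in turn, 2 to 3 rose and 6 to 7 fell at day 1, 8 to 9 and 9 to 11 at day 12, and 2 to 3 and 2 to 3 between days. Of all genes in these fits, 7.48% to 7.77% rose and 13.2% to 13.5% fell at day 1. The shares were 12.7% to 13% and 16% to 16.4% at day 12, and 10.2% to 10.6% and 8.35% to 8.6% between days. Among named members, calls gained with a library left out were Dnajc22 at day 1 (-1.26 without day 1 replicate 4), Hspb11 at day 12 (-0.59 without day 12 replicate 4) and Hspb8 between days (-0.59 without day 12 replicate 3). Members not named were not followed one by one.

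Total-count scaling moved the median of all members to 0.13, 0.34 and 0.18 in the 3 comparisons (0.13 at day 1 also with no filter and in the 11 libraries), that of TRiC to 0.68 at day 12 and 0.25 between days, and that of J proteins to 0.37 and 0.19. It moved the log2 ratio of summed levels at day 12 from 0.15 to 0.34 for all members and from 0.46 to 0.66 for TRiC. The TRiC median was 0.26 and 0.41 with DESeq2, 0.26 and 0.43 with no filter, and 0.16 between days with at least 10 CPM. The J protein median at day 1 was 0.23 with DESeq2, 0.23 with no filter, 0.18 with at least 10 CPM and 0.20 in the 11 libraries, and -0.0705 between days with at least 10 CPM. With 1 library left out, medians ranged at day 1, day 12 and between days from 0.09 to 0.12, 0.13 to 0.16 and -0.0080 to 0.02 for all members, 0.30 to 0.34, 0.47 to 0.49 and 0.06 to 0.09 for TRiC, and 0.13 to 0.18, 0.15 to 0.19 and -0.0045 to 0.02 for J proteins.

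With the replicate number as a block, 3 rose and 6 fell at day 1, 8 and 10 at day 12, and 3 and 2 between days, and Dnajb13 was the single call lost. Of all genes under that block, 7.69% and 13.4%, 13% and 16.3%, and 10.5% and 8.49% rose and fell. The libraries share only a number: deviations of same-numbered libraries from their group means correlated at -0.03 to 0.04 in 15 pairs, none over 0.1, and not every library correlated best with its own number. Depth limits the members under 1 CPM, and the p-values cover the spread between these libraries.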
